A study of Homo sapiens with 58 samples.

Results

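Among regulatory elements (REs) that lost chromatin accessibility 48 h after SOX9 was depleted from human cranial neural crest cells, 467 of 151,457 had a mean difference near 0 at 3 h, and these delayed lost REs are described here. They were chosen by measured accessibility. For each RE, counts were divided by the column sum of the sample and scaled to 1e6 (CPM), and 0.5 was added before taking log2. An RE was selected on a mean of at least 2 CPM without degrader, a mean log2 difference between 500 nM and 0 nM at 48 h above -2 and at most -0.6, a negative difference in all 7 replicates, and a mean difference between 3 h and vehicle within 0.15 of 0. Of 84,124 REs past the CPM bound, 5,356 met the 48 h criteria, and 467 of those met the 3 h criterion. The others were 3,450 early lost REs, already at -0.6 or lower at 3 h, 1,126 REs partly lost at 3 h and 313 REs that were higher at 3 h.

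The cells, called CNCCs, were derived in culture from the human embryonic stem cell line H9 and kept in a medium with BMP2 and the WNT pathway agonist CHIR-99021. In SOX9-tagged cells both SOX9 alleles carried FKBP12-F36V, mNeonGreen and V5 at the carboxy terminus, so that dTAGV-1, which links FKBP12-F36V to a ubiquitin ligase, degraded the endogenous protein. The 2 tagged lines are single clones, S9CC13 (4 replicates) and S9CC47 (3 replicates), and wild-type (WT) cells had no tag. A replicate is a clone in a differentiation batch, and batch R6 held both clones. Tagged cells were treated for 48 h with 0, 0.5, 1.6, 5, 16 or 500 nM dTAGV-1 (7 samples each), at which the labels give SOX9 at 100, 77.9, 51.7, 25.8, 8.14 and 0.95% of the untreated level. Further WT samples received 0 or 500 nM for 48 h (2 each), and a time course of both genotypes received vehicle for 24 h or 500 nM for 3 h or 24 h (2 each, batches R4 and R5). ATAC-seq measured accessibility through adapters that Tn5 transposase places in open chromatin.

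SOX9 is a high-mobility-group transcription factor that bends DNA and binds short A/T-rich cores such as ACAAT, often as a dimer on a pair of cores that face each other. In the neural crest it acts in crest formation and later in the commitment to cartilage. E-boxes, written CANNTG, are bound by basic helix-loop-helix factors such as TWIST1, and the variant CAGGTG also by the zinc fingers of SNAI and ZEB proteins, which are central to the neural crest.

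The sequences below show CAGGTG, which was more frequent in delayed than in early lost REs, and facing SOX cores, which were rare in both. They are reference hg38, plus strand, read here in windows around RE centres. The first 5 are among the delayed lost REs with the lowest p at 16 nM against 0.5 nM among those of the most common width in introns or between genes, with CAGGTG within 50 bp of the centre. Capitals mark CAGGTG or its reverse complement CACCTG.
CDC5L (intergenic, chr6:44594608-44594758): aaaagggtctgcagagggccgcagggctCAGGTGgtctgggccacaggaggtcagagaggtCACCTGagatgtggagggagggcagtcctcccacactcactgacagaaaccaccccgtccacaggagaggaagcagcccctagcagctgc
UMODL1 (intergenic, chr21:42154768-42154918): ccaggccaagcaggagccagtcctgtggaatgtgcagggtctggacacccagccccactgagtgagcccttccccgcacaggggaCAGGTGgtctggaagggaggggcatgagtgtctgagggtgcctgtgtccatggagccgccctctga
CD247 (intron, chr1:167472943-167473093): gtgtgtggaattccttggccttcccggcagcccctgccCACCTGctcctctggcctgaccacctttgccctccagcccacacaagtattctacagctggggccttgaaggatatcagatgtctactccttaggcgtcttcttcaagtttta
TSPAN15 (intergenic, chr10:69448436-69448586): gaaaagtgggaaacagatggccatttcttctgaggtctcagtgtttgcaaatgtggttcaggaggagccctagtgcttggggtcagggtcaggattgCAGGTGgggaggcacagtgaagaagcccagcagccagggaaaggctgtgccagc
HLCS (intron, chr21:36863376-36863526): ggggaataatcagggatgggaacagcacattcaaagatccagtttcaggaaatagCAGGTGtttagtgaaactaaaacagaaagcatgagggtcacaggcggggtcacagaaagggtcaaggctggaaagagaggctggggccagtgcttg
Each is named by the nearest protein-coding start. For contrast, the next 3 carry facing SOX cores, ACAAT and ATTGT with a gap of 3 to 5 bases, capitals covering both cores and the gap. The first is the one delayed lost RE with such a pair, and the others are the early lost REs with the lowest p at 16 nM among those with the pair near the centre.
GADD45G (delayed, intergenic, chr9:89750339-89750489): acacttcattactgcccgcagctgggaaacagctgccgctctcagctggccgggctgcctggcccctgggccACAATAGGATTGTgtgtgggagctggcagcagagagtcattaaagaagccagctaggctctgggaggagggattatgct
SOX4 (early, intron, chr6:21508861-21509011): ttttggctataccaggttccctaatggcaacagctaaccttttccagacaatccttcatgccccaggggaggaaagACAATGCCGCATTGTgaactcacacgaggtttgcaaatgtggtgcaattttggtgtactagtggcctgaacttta
PDCD6IP (early, intergenic, chr3:33940803-33940953): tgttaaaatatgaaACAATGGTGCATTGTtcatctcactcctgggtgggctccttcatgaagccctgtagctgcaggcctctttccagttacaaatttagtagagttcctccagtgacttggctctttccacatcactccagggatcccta
The GADD45G window also holds several CAGCTG E-boxes, which are left in lower case.

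The total count per sample, in units of 1e6, ran from 22.9 to 81 with a median of 45.6, and the median delayed lost RE had between 79 and 807 counts per sample (median 245). Promoters of all 10 cranial neural crest markers examined were accessible, from 19.4 CPM at TFAP2B to 91.4 CPM at ALX1. Of the pluripotency markers, POU5F1 reached 1.24 CPM and NANOG had no promoter RE, while LIN28A reached 41.0 CPM, PRDM14 28.1 CPM and DPPA4 12 CPM. Promoter REs of 5 neural progenitor markers ran from 1.75 to 17.5 CPM, of 2 of 4 endothelial and blood markers from 10.2 to 10.4 CPM and of 3 of 4 epithelial markers from 1.12 to 10.8 CPM. In the tagged S9CC47_R6 batch the 5 nM library stood apart, with a median log2 difference of -0.15 from 0.5 nM over all REs past the CPM bound.

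The values used for selection are given as description only. The log2 difference between 500 nM and 0 nM ran from -1.72 to -0.60 with a median of -0.72, and 420 of the 467 REs (89.9%) lay above -1. The difference at 3 h had quartiles of -0.09 and 0.06. It was a mean of 2 batches, and the 2 batches had opposite signs at 256 REs. Both batches lay within the window on their own at 205 REs (43.9%). Over all REs past the CPM bound the median difference at 3 h was 0.07, so a value of 0 lies slightly below the bulk. After scaling by the trimmed mean of M values (TMM), edgeR gave a median log2 fold change at 3 h of -0.09 over the members, none of them was called lower (7.51% of all REs were), and the median standard error was 0.17. Of the 467, 347 were negative in this fit. Set against WT cells, the members were slightly lower at 3 h in both batches, with medians of tagged minus WT of -0.08 (64.7% negative) in R4 and -0.13 (72.6% negative) in R5, where all REs past the CPM bound were at 0.06 and 0.01. The rule held the tagged values near 0, and the WT medians were 0.09 in both batches, so this gap is a description. A mean near 0 on the scale of the rule is not a test for no change.

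At the bound of -0.6, the RE nearest to SIK2 was just inside at -0.60 (-0.600485 unrounded), and the one nearest to GYPC was just outside at -0.599729. The member nearest the bound of -2 was at -1.72, nearest to SVBP, and the RE just beyond -2 that met the other 48 h criteria, nearest to MANF, was lower at 3 h (-1.43). At 3 h the REs nearest to GDF15 (-0.149611) and KCTD17 (0.149721) were just inside, and those nearest to BEAN1 (-0.150805) and THSD4 (0.15013) just outside. At the CPM bound the RE nearest to SMYD1 (2.003 CPM) was inside and that nearest to TTC21B (1.997 CPM) outside. Members and non-members therefore lie on a continuum.

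Delayed lost REs were mostly distal. Introns held 215 (46.0%), intergenic sequence 135 (28.9%) and promoters, within 1,000 bp of an annotated transcription start, 69 (14.8%). The other REs past the CPM bound are the 78,768 that did not meet the 48 h criteria, some of which were also lower after SOX9 loss (3,960 were called lower at 16 nM). Promoters made up 37.1% of these, and in the early lost REs 13.1%. The median G+C content was 51.9%, against 45.9% in early lost REs and 52.1% in the others. The members lay on 23 chromosomes and nearest to 412 genes, of which 365 had 1 member.

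The delayed lost REs often lay near early lost ones. An early lost RE was within 50 kb of 186 of the 467 (39.8%), against 16.3% of the other REs past the CPM bound. Leaving out promoters, the shares were 38.2% and 17.9%. The nearest gene was also the nearest gene of an early lost RE for 263 members (56.3%), against 32.7% of the others, and another member lay within 50 kb of 69 (14.8%), against 3.46% of the others. Of partly lost REs, 32.7% had an early lost RE within 50 kb, 54.5% shared its nearest gene and 9.59% had a member within 50 kb. In REs higher at 3 h these shares were 27.8, 41.2 and 12.5%, so nearness is not particular to the delayed class. All these shares are descriptive, since REs of 1 locus are not independent.

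In bulk samples, fewer cells with an open RE and less opening per cell cannot be told apart. Within the doses that the rule did not use, accessibility of the delayed lost REs decreased with the dose of dTAGV-1. The median log2 difference from 0.5 nM over the members was -0.08 ± 0.07 at 1.6 nM, -0.28 ± 0.10 at 5 nM and -0.42 ± 0.07 at 16 nM (mean of replicate medians ± SD, n = 7). At 16 nM the 7 replicate medians ran from -0.52 to -0.32, and all REs past the CPM bound had a mean median of 0.01 ± 0.01. Early lost REs reached -0.15 ± 0.08, -0.53 ± 0.10 and -0.84 ± 0.20 at the same doses. The 3 comparisons share their 0.5 nM samples, so they are not independent of each other.

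**Figure D1:**
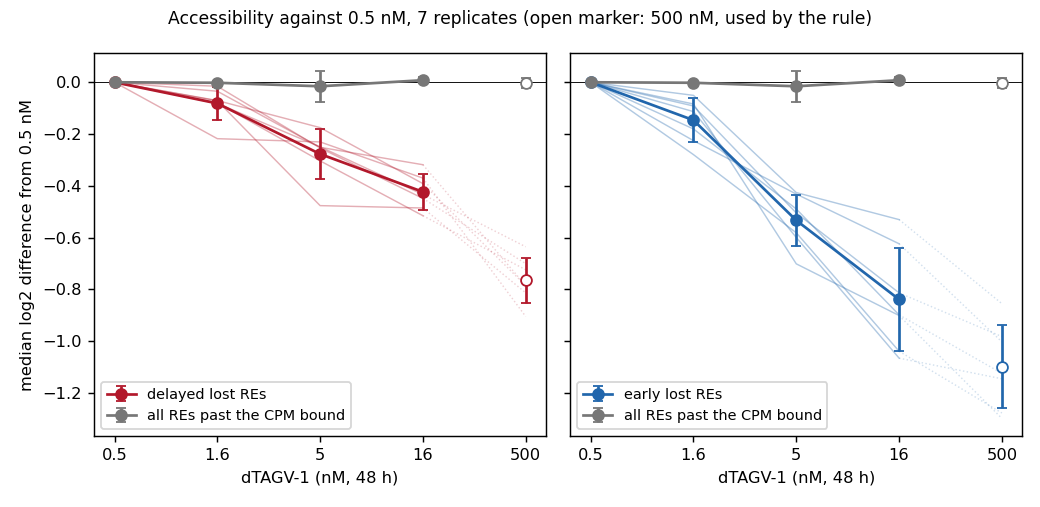
Median log2 difference in accessibility from 0.5 nM (y axis) by dTAGV-1 concentration at 48 h (x axis) for delayed lost REs (left), early lost REs (right) and all REs past the CPM bound (grey). Thin lines are the 7 replicates, points and bars the mean ± SD, and open markers the 500 nM samples that the rule used; the delayed lost REs reached -0.42 ± 0.07 at 16 nM and the early lost REs -0.84 ± 0.20.

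As a share of the drop at 16 nM, the drop at 5 nM was 65.3 ± 17.7% in delayed and 65.2 ± 10.8% in early lost REs, and that at 1.6 nM 20.0 ± 17.9% and 17.7 ± 10.5% (mean ± SD, n = 7). Over this part of the titration the 2 classes thus differed in the size of the drop, with shares whose means lay within the spread between replicates. The drop at 16 nM was 56.3 ± 12.7% of that at 500 nM in delayed and 75.8 ± 11.6% in early lost REs. Those last shares rest on the 500 nM samples that chose the members and are a description.

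Single REs were tested with edgeR's quasi-likelihood test over all 151,457 REs with the differentiation batch as a term and Benjamini-Hochberg adjustment. At 16 nM against 0.5 nM, 403 of the 467 delayed lost REs were called lower at an adjusted p under 0.05 and none higher. Over all REs 8.15% were called lower, and 10.8% of those past the CPM bound. The fitted log2 fold changes of the members ran from -1.20 to -0.11 with a median of -0.49 and a median standard error of 0.11. All 467 were negative. In 364 members the difference was negative in 7 of 7 replicates (8.68% of all REs), in 85 in 6 of 7 and in 18 in 5 or fewer. Levels nevertheless overlapped between the groups at most members: every 16 nM sample lay below every 0.5 nM sample at 15 of the 467, against 1.93% of all REs. Without the batch term, 50 members were called.

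At 5 nM against 0.5 nM, 121 members were called lower (3.89% of all REs, 5.33% of those past the CPM bound), and all 121 were also called at 16 nM. The median log2 fold change was -0.28. This count depended on single libraries. With a block for each replicate in place of batch it was 263, and with neither it was 0. It was 305 without S9CC47_R6, the replicate whose 5 nM library stood apart, 188 without S9CC13_R6, and 62, 58, 60, 48 and 40 without S9CC13_R10, S9CC13_R13, S9CC13_R14, S9CC47_R5 and S9CC47_R8.

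At 1.6 nM against 0.5 nM none of the 467 was called by edgeR or DESeq2, and none of all REs by edgeR (0.0%). An unadjusted p under 0.05 was found at 37 members, all of them lower (7.92%, against 3.63% of all REs). With a block for each replicate 9 members were called, and 7 and 6 without S9CC13_R6 and S9CC47_R6. Between 16 and 5 nM 5 members were called lower (0.869% of all REs) with a median log2 fold change of -0.20, and 192 had an unadjusted p under 0.05. With the replicate block 51 were called and with DESeq2 15. Leaving out S9CC47_R6 gave 129 and S9CC13_R6 10, and leaving out S9CC13_R10, S9CC13_R13, S9CC13_R14, S9CC47_R5 or S9CC47_R8 gave 0, 1, 2, 0 and 0.

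The effect of 16 against 0.5 nM was compared between clones. No member differed between S9CC47 and S9CC13 in edgeR or DESeq2 (0.0555% of all REs did in edgeR). An unadjusted p under 0.05 was found at 31 members (6.64%, against 5.16% of all REs), and the median difference S9CC47 minus S9CC13 was -0.10 with a median standard error of 0.17. Leaving out S9CC13_R6 gave 1 call. The tests do not show that the clones respond alike.

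The level of the delayed lost REs varied more between differentiations than that of the other REs past the CPM bound. At 0.5 nM the highest of the 7 replicates was 2.83 times the lowest at the median member, against 1.82 times at the other REs past the CPM bound. REs higher at 3 h had a larger ratio, 3.62 times, so a wide spread is not particular to the delayed class. Partly lost REs (2.22 times) and early lost REs lay between the delayed lost and the other REs. Together the members took 0.325 to 0.680% of all counts at 0 nM in tagged cells, with S9CC13_R10 lowest and S9CC47_R8 highest. WT cells of batch R8 also had a high share without degrader (0.745%). In the time course the vehicle samples of batch R4 held 0.697% (tagged) and 0.651% (WT), and those of batch R5 0.398% and 0.447%. The share thus followed the batch in both genotypes, and each drop below was compared within a batch.

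The samples at 24 h were not used by the rule, although their vehicle samples also entered the 3 h value. In tagged cells the median log2 difference from vehicle over the delayed lost REs was -0.01 ± 0.03 at 3 h, as the rule required, and -0.50 ± 0.19 at 24 h (n = 2). Early lost REs were at -1.17 ± 0.15 and -1.38 ± 0.16. edgeR called 345 of the 467 lower at 24 h (9.95% of all REs, 12.2% of those past the CPM bound) with a median log2 fold change of -0.64. Both this comparison and that at 16 nM called 312 members, 91 were called at 16 nM alone, 33 at 24 h alone and 31 at neither.

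WT cells bear on this comparison, since delayed lost REs were also lower in WT cells at 24 h, most in batch R4. In the WT fit at 24 h, 402 of the 467 were negative (86.1%, against 51.7% of all REs), with a median of -0.19. Within batch R4 the median over the members was -0.63 in tagged and -0.25 in WT cells, and within batch R5 it was -0.37 and -0.05. The difference of tagged minus WT, taken RE by RE, had a median of -0.42 in batch R4 and -0.32 in batch R5 and was negative at 94.0 and 90.4% of members, against 43.0 and 46.3% of all REs past the CPM bound. In the fit, the 24 h effect differed between genotypes at 44 members, all lower in tagged cells (6.28% of all REs, 7.76% of those past the CPM bound), with a median of -0.44 and a median standard error of 0.24. An unadjusted p under 0.05 was found at 208. DESeq2 called 15. All 44 were also called at 24 h in tagged cells alone, and 41 of them at 16 nM.

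Both 24 h counts rested on few samples. The 345 became 55 without the 24 h sample of tagged R4, 75 without its vehicle, 169 without the vehicle of tagged R5 and 333 without its 24 h sample, and 152 with 3 h in place of vehicle. The 44 became 4 and 2 without the 24 h and vehicle samples of tagged R4, 103 and 14 without those of tagged R5, 8 without the vehicle of WT R4, 9 without the vehicle of WT R5, 53 without the 24 h sample of WT R4 and 30 without that of WT R5. Without the batch and genotype blocks they were 2 and 0. In these fits a group with 1 sample is assumed to vary like the others.

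**Figure D2:**
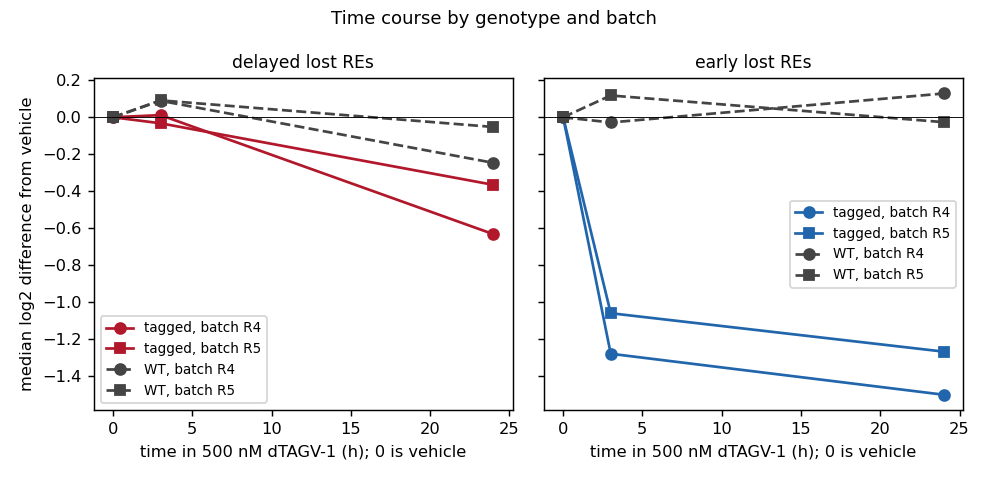
Median log2 difference from vehicle (y axis) by hours in 500 nM dTAGV-1 (x axis) for delayed lost REs (left) and early lost REs (right), with 1 line for each genotype and batch. Tagged cells (solid) had reached -0.63 and -0.37 at the delayed lost REs by 24 h, and the WT line of batch R4 (dashed, circles) was at -0.25.

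WT cells gave the background of degrader and handling. No member was called at 3 h or 24 h in WT cells by edgeR (0.0% of all REs at either time). At 3 h an unadjusted p under 0.05 was found at 7 members (2.99% of all REs). At 24 h it was found at 90, all of them lower (19.3%, against 3.39% of all REs), and the 24 h WT sample of batch R4 had the lower median, -0.25 against -0.05 in batch R5. After 48 h at 500 nM, 8 members were called lower in WT cells (0.145% of all REs), 68 had an unadjusted p under 0.05 (8.28% of all REs), and the median log2 fold change was -0.05. DESeq2 called none of these 8, and neither did a fit of all 10 WT samples.

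Motif letters were not part of the rule, and E-boxes were more frequent in delayed than in early lost REs. Of 15 short motifs searched on both strands of REs of the most common width (77.1% of members), CAGGTG was present in 61.1% of the delayed lost REs (220 of 360), in 30.1% of the early lost REs, and in 34.7% of the other REs past the CPM bound. CAGATG, the form bound by TWIST1, was present in 58.9, 48.3 and 39.5%, in 57.0% of partly lost REs and in 70.6% of those higher at 3 h. The share with CAGGTG ordered the 48 h lost REs by their 3 h value, from 30.1% in early through 42.9% in partly and 61.1% in delayed lost REs to 71.8% in those higher at 3 h. Over all REs of that length it was 33.6%. The 3 h value in tagged cells also varied with CAGGTG outside the lost REs. Its median was 0.10 in the other REs past the CPM bound with CAGGTG and 0.06 in those without (any length, mean of 2 batches). The part of this shift in the order of the classes was not tested. E-boxes with other centres were counted after these values were seen. CAGCTG was present in 62.5% of delayed, 38.5% of early lost and 35.6% of the other REs. It was present in 50.1% of partly lost REs and 74.8% of those higher at 3 h. CACGTG (9.44, 6.68 and 8.54%) and CATATG (6.67, 13 and 8.88%) showed no such excess. CAGTTG (21.1 and 24.2%), CAAATG (27.5 and 34.4%) and CAATTG (4.44 and 8.97%) were less frequent in delayed than in early lost REs. CAAGTG (25.6 and 24.7%) and CACATG (37.8 and 37.5%) were nearly equal in these classes.

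SOX cores followed the opposite order. ACAAT was present in 43.1% of delayed lost REs, near the 44.4% of the other REs and below the 71.3% of the early lost ones. ACAAAG was present in 37.2, 29.5 and 55.1%. Either core was found in 64.7% of delayed and 89.8% of early lost REs. Facing cores with a gap of 3 to 5 bases, as in the SOX4 and PDCD6IP windows above, were rare. They occurred in 1 of 360 delayed lost REs (0.278%), 14 of 2,620 early ones (0.534%) and 0.130% of the other REs. With 1 match in the delayed class, these shares do not separate the classes. The AGGTCA motif of NR2F receptors was present in 45% of delayed lost and 32.3% of the other REs. It was present in 36.5% of early lost REs, 42.6% of partly lost REs and 54.6% of those higher at 3 h. TGAGTCA of AP-1 (3.89 against 8.83%) and the homeodomain core TAATTA (5.28 against 11.1%) were less frequent in the delayed class than in the other REs. Early lost REs had 8.63 and 14.3% of these 2 motifs, partly lost REs 5.68 and 12.6%, and those higher at 3 h 5.34 and 3.44%. A match describes letters and not binding.

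**Figure D3:**
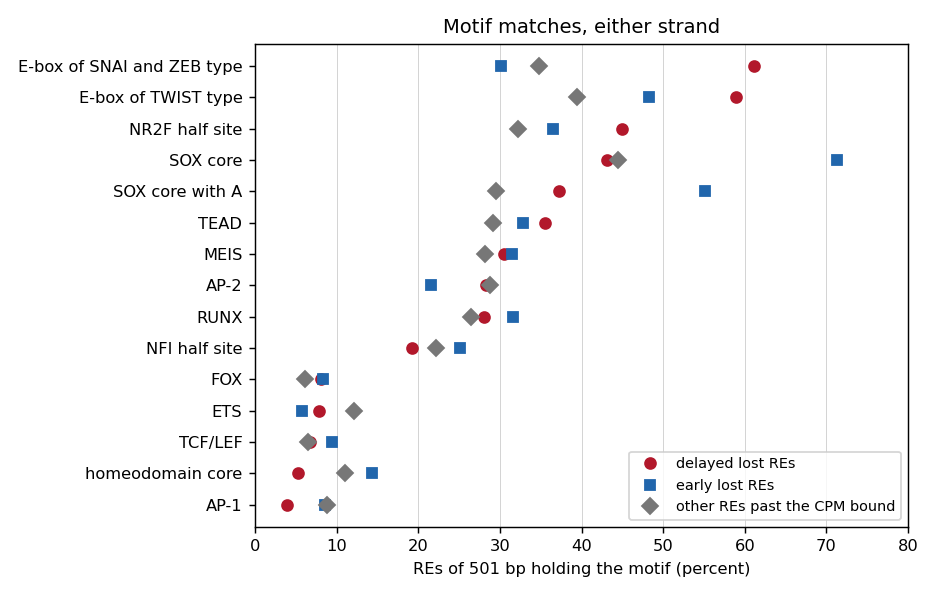
Share of REs of the most common width that hold each of 15 motifs on either strand (x axis, percent) for delayed lost REs (circles), early lost REs (squares) and other REs past the CPM bound (diamonds). The E-box of SNAI and ZEB type is present in 61.1% of delayed and 30.1% of early lost REs, and the SOX core in 43.1 and 71.3%.

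Base composition differs between these classes, so the shares were also taken within ranges of G+C content. CAGGTG was present in 61.1% of delayed lost REs of up to 45% G+C, against 23.7% of the other REs and 23.5% of the early lost ones. From 45 to 50% the shares were 60, 33.9 and 31.1%, from 50 to 55% 55.3, 40.1 and 38.3%, from 55 to 60% 63.0, 42.3 and 38.9%, and above 60% 72.5, 39.3 and 39.3%. The excess in delayed lost REs was present in each range. ACAAT in the delayed lost REs had no common direction against the other REs. The shares were 63.0 against 69.4% up to 45%, 61.25 against 56.0% from 45 to 50% and 37.2 against 42.5% from 50 to 55%. They were 31.5 against 31.0% from 55 to 60% and 20.0 against 17.7% above 60%. In early lost REs ACAAT was present in 80.3, 68.9, 64.7, 60.7 and 47.6% over the same ranges, above the delayed class in each.

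In the delayed class CAGGTG was concentrated near the RE centre. The E-boxes CAGCTG and CAGATG were central in early lost and other REs as well. Within 25 bp of the centre CAGGTG occurred 3.00 times per kb in delayed lost REs, 0.924 in the other REs and 0.687 in early lost REs. At the outer edge it occurred 1.63, 0.932 and 0.680 times per kb. From centre to edge CAGCTG went from 4.17 to 1.09 per kb in delayed lost, 1.54 to 0.594 in other and 1.90 to 0.407 in early lost REs. For CAGATG these values were 3.78 to 0.543, 1.98 to 0.715 and 2.30 to 0.763. Within 50 bp, 23.9% of the delayed lost REs had a CAGGTG, 31.9% a CAGCTG and 7.22% an ACAAT. In the early lost REs these shares were 6.37, 16.2 and 28.8%, and in the others 8.26, 13.9 and 9.03%. The REs higher at 3 h had larger shares of both E-boxes, 29.8 and 46.6%, and 4.58% with ACAAT, and partly lost REs had 11.1, 24.5 and 12.4%, so these letters are not particular to the delayed class. ACAAT went from 1.63 per kb at the edge to 0.778 at the centre in the delayed class, and likewise from 1.71 to 0.905 in the other REs.

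**Figure D4:**
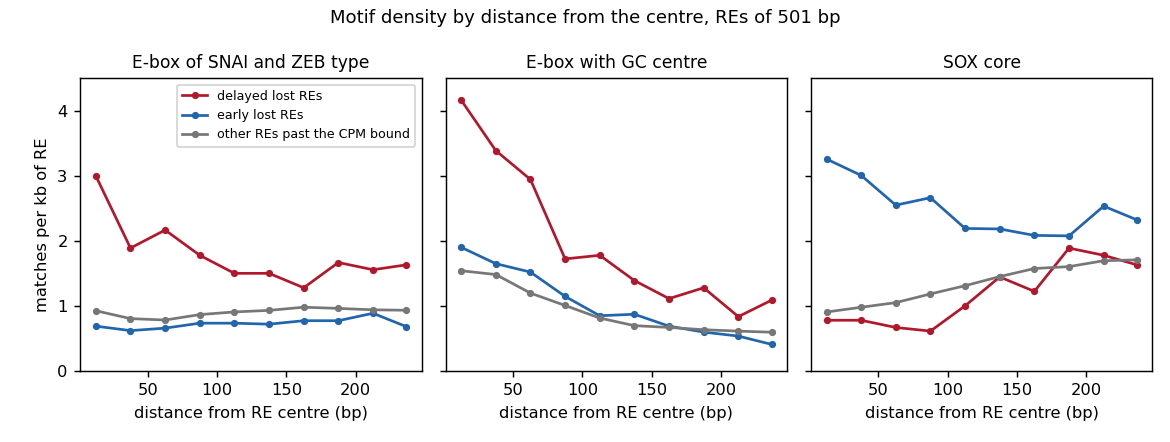
Matches per kb of RE (y axis) by distance from the RE centre in bins of 25 bp (x axis) for CAGGTG (left), CAGCTG (middle) and ACAAT (right) in delayed lost, early lost and other REs of the most common width. CAGGTG reaches 3.00 per kb at the centre of delayed lost REs, where ACAAT is at 0.778 per kb.

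CAGGTG was present in 298 of all 467 members when longer REs are included, and the responses of members with and without it were set side by side. At 16 nM, 256 of 298 with it (85.9%) and 147 of 169 without it (87.0%) were called lower, with median log2 fold changes of -0.50 and -0.47. At 5 nM, 90 with it (30.2%) and 31 without it (18.3%) were called lower. At 24 h in tagged cells the counts were 238 (79.9%) and 107 (63.3%). The WT library of batch R4 differed in the same way, with a median 24 h difference of -0.34 at members with CAGGTG and -0.06 at those without. Tagged minus WT in that batch was -0.43 and -0.41, and in batch R5 -0.34 and -0.29. In the fit the 24 h effect differed between genotypes at 25 members with CAGGTG (8.39%) and 19 without it (11.2%). Members with CAGGTG also varied more between differentiations, with a ratio of 3.44 between the highest and lowest replicate at 0.5 nM, against 2.17 without it, while the other REs past the CPM bound had 1.82 with and without it. The part of these batch differences in the 24 h counts was not tested.

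The 6 members with the lowest p at 16 nM against 0.5 nM all carried at least 1 CAGGTG and were negative in 7 of 7 replicates. The RE of chr17:78304368-78305152, intergenic and nearest to SOCS3, which encodes an inhibitor of cytokine signalling, had 8.94 CPM in the lowest, 12.9 in the median and 25.5 in the highest sample at 0.5 nM, and 4.47, 5.85 and 10.1 CPM at 16 nM. The ranges overlapped, and S9CC47_R8 was the highest at 0.5 nM. Its log2 fold change was -1.07 ± 0.09 (SE, adjusted p = 2.21e-07), and -0.61 ± 0.09 at 5 nM (adjusted p = 0.000413). Over time the tagged cells had 25.5 and 12.1 CPM with vehicle, 27.2 and 11.1 at 3 h and 9.11 and 7.73 at 24 h in R4 and R5, while the WT cells had 22.4 and 18.6, 26.5 and 19.0, and 14.8 and 18.9. Only the R4 sample of WT cells was lower at 24 h, and the genotypes did not differ by the test (adjusted p = 0.0925).

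The RE of chr17:49402773-49403273, nearest to PHB1, the gene of prohibitin, fell most among the 6 at 16 nM. It lies 808 bp from the start of another annotated transcript and 4,200 bp from that of PHB1. It had a median of 5.56 CPM at 0.5 nM (2.86 to 14.3) and 2.49 at 16 nM (1.35 to 6.61), which gave -1.14 ± 0.11 on the log2 scale (SE, adjusted p = 6.04e-07). At 24 h the genotypes differed by -1.18 ± 0.35 (adjusted p = 0.0451). The tagged cells of both batches were lower at 24 h from very different starting levels, from 17.1 to 4.16 CPM in R4 and from 3.37 to 2.06 CPM in R5.

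DAB2IP, which encodes a Ras GTPase-activating protein, has a member in an intron at chr9:121639979-121640925. There the doses separated completely, with 19.4 to 33.9 CPM at 0.5 nM (median 25.2) and 13.2 to 18.7 CPM at 16 nM (median 16.8). The log2 fold change was -0.72 ± 0.07 (SE, adjusted p = 1.39e-06). In the time course it had 24.4 and 18.3 CPM with vehicle, 22.2 and 16.8 at 3 h and 13.7 and 13.7 at 24 h in tagged cells, against 27.2 and 24.5, 26.1 and 23.6, and 28.4 and 24.1 in WT cells. All 6 WT samples of the time course lay above both tagged 24 h samples, and the 24 h effect differed between genotypes (-0.67 ± 0.17, adjusted p = 0.0155).

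STRA6, the cell-surface receptor for retinol uptake, has a member at its promoter (chr15:74208501-74209463), which was also among the 3 most accessible. It had 65.7 CPM at 0.5 nM (52.6 to 87.2) and 45.6 at 16 nM (35.3 to 53.2), with an overlap of the lowest 0.5 nM and the highest 16 nM sample. The log2 fold change was -0.62 ± 0.06 (SE, adjusted p = 1.55e-06). Tagged cells went from 75.2 and 65.6 CPM with vehicle to 71.6 and 58.6 at 3 h and 42.4 and 46.4 at 24 h. WT cells stayed between 68.5 and 74.8 CPM in all 6 samples, and the difference between genotypes at 24 h was -0.68 ± 0.14 (adjusted p = 0.00255).

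Of the other 2 of the 6, 1 was the intergenic RE nearest to CDC5L, a splicing factor gene, whose window is shown above. It lies 206,727 bp from that start (-0.70 ± 0.07, SE, adjusted p = 1.05e-06 at 16 nM). The other was an intronic RE of ATOH8 (chr2:85758519-85759019), a basic helix-loop-helix factor. The ATOH8 RE had the widest spread of the 6, from 6.67 to 72.0 CPM at 0.5 nM and from 3.75 to 46.2 at 16 nM, with S9CC47_R8 highest at both. Its drop within replicates was -0.72 ± 0.08 (SE, adjusted p = 2.20e-06). WT cells of batch R4 went from 42.6 CPM with vehicle to 19.8 at 24 h, as low as the tagged cells (53.0 to 19.8), and the genotypes did not differ by the test at 24 h (-0.32 ± 0.32, adjusted p = 0.699).

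**Figure D5:**
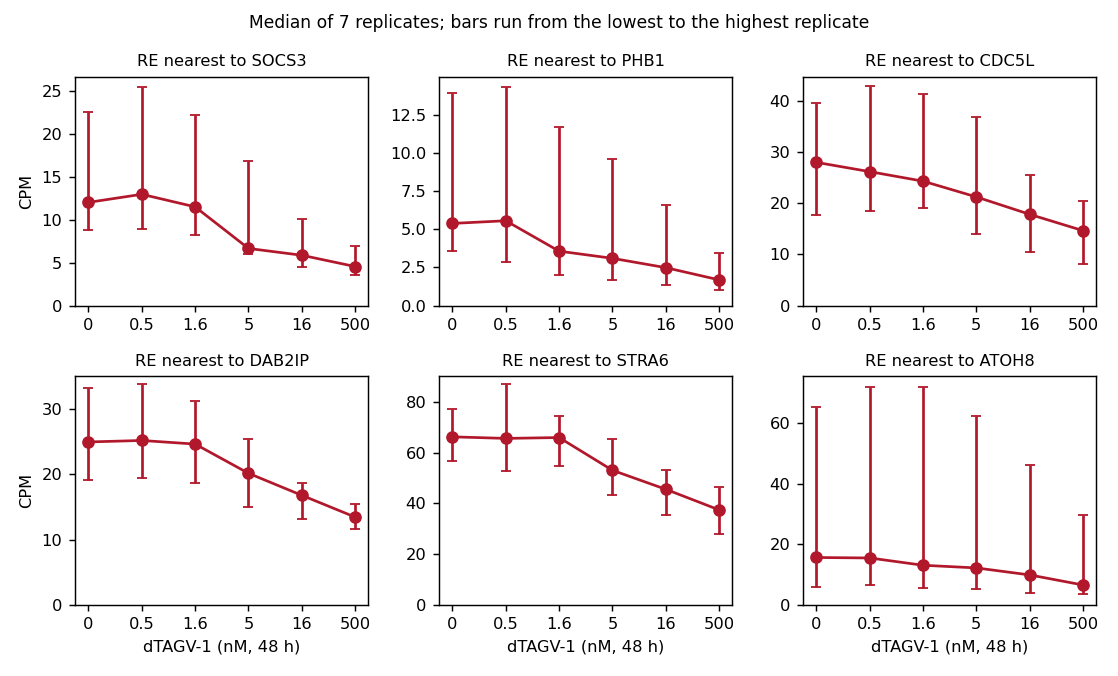
CPM (y axes, from 0) by dTAGV-1 concentration at 48 h (x axes) for the 6 delayed lost REs with the lowest p at 16 nM against 0.5 nM. Points are medians of 7 replicates and bars run from the lowest to the highest; the DAB2IP RE falls from 25.2 to 16.8 CPM between 0.5 and 16 nM, and the ATOH8 RE spans 6.67 to 72.0 CPM at 0.5 nM.

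The 3 members below fell most at 24 h among those called there. An intronic RE of PREX1, an activator of the small GTPase Rac, was at -1.69 ± 0.22 (SE, adjusted p = 3.59e-06) and went from 6.55 and 3.05 CPM with vehicle to 6.76 and 2.87 at 3 h and 1.68 and 1.33 at 24 h. The intergenic RE nearest to UMODL1, shown above, was also at -1.69 ± 0.26 (SE, adjusted p = 4.04e-05), and a distal RE nearest to CDH11, a cadherin gene of mesenchyme, at -1.64 ± 0.23 (SE, adjusted p = 1.25e-05). The CDH11 RE, 529,690 bp from the start of that gene, was lower in WT R4 as well, at 4.75 CPM with vehicle and 2.59 at 24 h. Its genotype difference missed the threshold (adjusted p = 0.0686), whereas those of PREX1 (adjusted p = 0.00614) and UMODL1 (adjusted p = 0.00903) passed it.

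At the other end, 3 members called at 16 nM had 24 h values nearest to 0. All were promoter REs. The one in TRIM62 lies 707 bp from the start of another annotated transcript and 12,492 bp from that of TRIM62. TRIM62 was at -0.14 ± 0.10 (SE), ITPR3, an inositol trisphosphate receptor gene, at -0.16 ± 0.15, and CNTN4, a contactin of cell adhesion, at -0.18 ± 0.14. The CNTN4 RE had 10.4 and 5.17 CPM with vehicle, 10.4 and 5.04 at 3 h and 9.62 and 4.82 at 24 h in tagged cells, so a drop was hardly present at 24 h. At 48 h it had 4.33 to 6.11 CPM at 0.5 nM and 3.18 to 4.80 at 16 nM (-0.46 ± 0.10, adjusted p = 0.00349). The ITPR3 call at 16 nM held in 8 of 15 alternatives and is uncertain.

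The most accessible members were an intronic RE of CUEDC1 (mean 91.6 CPM at 0 nM), an intergenic RE nearest to ZNF703 (78.5 CPM) and the STRA6 promoter (67.9 CPM). The ZNF703 RE lies 138,787 bp from the start of that gene. The CUEDC1 RE had 87.2 CPM at 0.5 nM (67.1 to 126) and 44.7 at 16 nM (40.5 to 96.9). It was called lower at 16 nM (-0.64 ± 0.08, SE, adjusted p = 6.45e-06) and at 24 h (-0.88 ± 0.10, adjusted p = 3.12e-07), and differed between genotypes at 24 h (-0.67 ± 0.13, adjusted p = 0.00167). The RE with facing SOX cores lies 145,072 bp from the start of GADD45G. It had 3.65 CPM at 0.5 nM (2.72 to 15.7) and 2.25 at 16 nM (1.16 to 10.2). The fitted log2 change was -0.69 ± 0.12 (SE, adjusted p = 0.000502).

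Members were then linked to 10 lists of genes by lying in a list gene or nearest to its start. Over all members 403 of 467 were called lower at 16 nM and 345 at 24 h, and members made up 0.555% of the REs past the CPM bound. For lists of 2 to 7 members these counts are description. No member of any list was called higher.

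In the BMP and TGF-beta list 4 members, near BMP2, BMP4, BMP7 and TGFBR2, were all called lower at 16 nM and 2 at 24 h. The BMP7 RE lies within 1 kb of the start of this ligand gene (chr20:57244580-57245080) and had 18.4 CPM at 0.5 nM (7.01 to 47.4) and 12.8 at 16 nM (4.55 to 35.6), at a fitted log2 change of -0.67 ± 0.09 (SE, adjusted p = 2.51e-05). In the FGF, hedgehog and Notch list 5 members, near FGFR1, GLI2 (2), PTCH1 and SPRY1, were called lower at 16 nM and 4 at 24 h. SPRY1 encodes an inhibitor of receptor tyrosine kinase signalling. The RE nearest to it, 407,868 bp from its start, had the lowest p of the list (-0.62 ± 0.09, SE, adjusted p = 0.000122). The intronic member nearest to PTCH1, the hedgehog receptor gene, also differed between genotypes at 24 h (-0.83, adjusted p = 0.0424). In the WNT list 4 members, nearest to ROR2, TCF7L1 (2) and TCF7L2, were called lower at 16 nM and at 24 h, with the RE nearest to TCF7L2, an effector of beta-catenin, but in an intron of VTI1A 211,020 bp from that start, at -0.56 ± 0.08 (SE, adjusted p = 7.78e-05).

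Guidance and migration genes held 7 members, near CDH11, NRP2, NTN1, PLXNA2 (2), SEMA5A and SEMA6A, and all 7 were called lower at 16 nM and at 24 h. An intronic RE of SEMA5A, a semaphorin, had the lowest p (-0.44 ± 0.07, SE, adjusted p = 0.000207), with 24.5 CPM at 0.5 nM (18.2 to 40.2) and 17.2 at 16 nM (11.2 to 34.4). The RE near the guidance ligand NTN1 was the one of the 7 that also differed between genotypes at 24 h (-0.91, adjusted p = 0.00139). The median of the 7 was -0.59 at 16 nM and -0.91 at 24 h, against -0.49 and -0.64 over all members.

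Cartilage genes held 5 members, near COL27A1, MATN1, MATN3 and PRELP (2), all called lower at 16 nM and at 24 h, and 4 of them with CAGGTG. The PRELP promoter RE (chr1:203476181-203476681), at a gene of a matrix protein of connective tissue, had 7.90 CPM at 0.5 nM (6.06 to 9.10) and 4.72 at 16 nM (4.16 to 6.23). Its log2 fold change was -0.61 ± 0.09 (SE, adjusted p = 0.000151), and the genotypes differed at 24 h (-0.72 ± 0.21, adjusted p = 0.0412). WT samples of the time course held 5.44 to 7.92 CPM, with no order by treatment. In the list of osteoblast and RUNX genes both members lay in introns and nearest to RUNX3, 1 of them called at 16 nM and both at 24 h.

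In the list of cranial crest transcription factors, the members nearest to ID3 and TBX3 were called lower at 16 nM. The TBX3 RE was at -0.48 (adjusted p = 0.0485), close to the threshold, and was not called at 24 h (-0.34, adjusted p = 0.373). ID3 encodes an inhibitor that binds helix-loop-helix proteins, and the RE nearest to it, 21,660 bp away at the start of another transcript, had 9.32 CPM at 0.5 nM (5.65 to 25.7) and 6.32 at 16 nM (3.55 to 17.7), at a fitted log2 change of -0.58 ± 0.08 (SE, adjusted p = 7.14e-05). It holds no CAGGTG. Among SOX genes the SOX13 promoter (-0.45 ± 0.08, SE, adjusted p = 0.000785) and an RE nearest to SOX9 (chr17:72185440-72185940) were members. The SOX9 RE was called at 16 nM (-0.45, adjusted p = 0.0034) and not at 24 h (-0.37, adjusted p = 0.174).

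In the list of AP-1 and YAP-TEAD genes both members lay in introns and nearest to WWTR1, which encodes TAZ, and both were called at 16 nM and at 24 h, with -0.61 ± 0.10 (SE, adjusted p = 0.000217) at the stronger. Of 2 members in the list of integrins, laminins and other collagens, near COL4A2 and ITGA9, the former was called at both. That RE lies in an intron of the neighbouring RAB20, had 2.42 CPM at 0.5 nM, and kept its call in 12 of 15 alternatives.

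By number of members, PREX1 led with 5, of which 2 were called lower at 16 nM and 4 at 24 h. CADM1, CNTN4, IGSF21, SPOCK1 and SULF2 had 3 each. The 3 near SULF2, which encodes an enzyme that removes sulfate from heparan sulfate, all carried CAGGTG and were called at 16 nM with log2 fold changes from -0.56 to -0.42. The 3 near the adhesion gene CADM1 carried none and were called as well, from -0.72 to -0.39.

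Across members, the fitted values at 16 nM and at 24 h had a Spearman rho of 0.54 over 467 REs. The points share batches and base composition, and the value is a description. The rho of G+C content with the value at 16 nM was -0.18 and with that at 24 h 0.05.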

How the data were processed

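ATAC-seq counts per RE were used as deposited. The authors trimmed reads with skewer, aligned them to hg38 with Bowtie2 2.4.1, filtered with SAMtools 1.10, called summits with MACS2 2.2.7.1 and counted reads over the merged REs with bedtools, and the submitters' processing notes also name deepTools 3.5.0. Values are raw read counts, not normalized.

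Samples were grouped by their titles. The concentration label of the S9CC13_R14 samples at 0 and 0.5 nM is exchanged against the titles, and the tagged R5 time-course columns carry the name of the other clone. Members and gene lists were chosen with earlier results of these data known. Levels are CPM from column sums, and log2 differences used a pseudocount of 0.5. Tests used edgeR 4.0.16 in R 4.3.3 (TMM, quasi-likelihood, no filter, all 151,457 REs, Benjamini-Hochberg, threshold 0.05), with DESeq2 1.42.0 as an alternative. Scripts were tested on simulated data. REs were annotated with GENCODE 44, and sequence was read from hg38 with pysam 0.24.0. Tables and figures were made with python 3.11.15, pandas 2.3.3, numpy 2.4.6 and matplotlib 3.10.9.

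The REs named are the 6 members with the lowest p at 16 nM, the member with the lowest p in each of 10 gene lists, the 3 most reduced at 24 h, the 3 called at 16 nM whose 24 h value was nearest 0, the 3 of highest CPM and the 1 with facing SOX cores. The replicate numbers mark shared differentiations. Deviations of same-numbered samples from the group means correlated at 0.72 or more for 16 against 0.5 nM, and at 0.16 or more in every dose comparison. No pair of samples of 1 group agreed within counting noise. Alternatives were another tool, scaling, a filter at a mean of 1 CPM, other blocks and baselines, offsets for G+C content and leaving out each replicate. 1 result that names a withheld item is not reported here.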

Additional observations from a re-analysis of the deposited data

Results flagged for a closer look

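In 18 of 79 groups checked 1 sample stood apart from the rest. The chance rate of about 1 in 20 holds for independent groups. All groups here come from the same 7 replicates, so the count cannot be set against that rate. The median over the delayed lost REs at 5 against 0.5 nM was -0.48 in S9CC47_R6, below the other 6 replicates, and at 1.6 against 0.5 nM it was -0.22 in S9CC13_R14, the replicate whose concentration labels at 0 and 0.5 nM are exchanged against the titles used here.

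The other 16 are values of named REs in S9CC47_R8. At 0.5 nM this replicate had 25.5 CPM at the RE near SOCS3, 14.3 near PHB1, 72.0 near ATOH8, 25.7 near ID3, 18.7 near SPRY1, 27.7 near TCF7L2, 5.30 near PREX1 and 15.0 near UMODL1. At 16 nM it had 6.61 CPM near PHB1, 46.2 near ATOH8, 17.7 near ID3, 35.6 near BMP7, 12.4 near SPRY1, 20.0 near TCF7L2 and 8.25 near UMODL1. The difference of 16 minus 0.5 nM at the PREX1 RE was -1.32 in this replicate.

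The 24 h effect differed between tagged and WT cells at 44 members by the interaction term of edgeR, all lower in tagged cells. That is 9.42% of the members, near the 7.76% of all REs past the CPM bound called lower.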

How the results depend on the processing

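The replicate numbers pair samples of 1 differentiation. With the replicate block the members called lower were 449 at 16 against 0.5 nM, 263 at 5 against 0.5 nM, 9 at 1.6 against 0.5 nM and 51 at 16 against 5 nM. Without any block these were 50, 0, 0 and 0, and 2 for 24 h in tagged cells, 0 for tagged minus WT and 0 for WT cells at 48 h. DESeq2 called 15 at 16 against 5 nM, 15 for tagged minus WT and 0 in WT cells at 48 h, where a fit of all 10 WT samples also gave 0. For tagged minus WT, size factors by relative log expression gave 29 and a filter at a mean of 1 CPM 27. With 3 h as baseline 152 were called at 24 h. Leaving out 1 replicate or sample gave 341 to 442 at 16 nM, 40 to 305 at 5 nM, 0 to 7 at 1.6 nM, 0 to 129 for 16 against 5 nM, 0 to 1 between clones, 55 to 333 at 24 h and 2 to 103 for tagged minus WT. The rule kept 205 REs with the 3 h window met in both batches and 333 to 569 under other scalings and pseudocounts. The WT median at 3 h was 0.0490 with TMM scaling and 0.0853 with a pseudocount of 1, against 0.0902. The cause of these shifts was not tested. Of 81 alternatives other than leaving out a sample, 62 stayed close to the main value. Close meant a count within a set factor of the main count, or a median moved by less than the SD between replicates. No median changed sign, and counts could not. For single members the median standard error was 0.11 at 16 nM and 0.17 at 3 h.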
